A study of Mus musculus with 6 samples.

Results

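Reactive astrocyte genes are genes that astrocytes, the main supporting glia of the brain, express more strongly after injury, inflammation or disease. The 10 genes described here, Gfap, Vim, Serpina3n, Lcn2, Cd44, Osmr, Cp, Cd109, Stat3 and Aspg, were picked by name from the 38355 genes counted in whole mouse cortex. They were named while earlier results of the same samples were known, so that their age differences are a description and not independent evidence. RNA sequencing compared cortical hemispheres of C57BL/6 wild-type mice, an inbred laboratory strain, at 6 months (3 samples) and at 16 months (3 samples), with no treatment, transgene or other allele in either group. Among the labels, one protocol text says 3 months for the younger mice, and the remaining labels and the study's methods say 6. Polyadenylated RNA of the whole tissue was sequenced, and the values are raw counts of reads per gene, with totals on genes between 29797253 and 46519280 per sample. For an age difference seen in such bulk tissue, fewer cells of a type and less RNA per cell cannot be told apart.

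Astrocytes take up glutamate and potassium, supply neurons with metabolites and cover blood vessels with their endfeet. When they react to damage, they build up intermediate filaments made of GFAP and vimentin, and signals of the interleukin-6 family, which act through the shared receptor chain gp130 and receptors such as OSMR, switch on the kinase JAK and the transcription factor STAT3. Gfap and Serpina3n are widely used as markers of this state and are known from other work to be higher in old mouse brain. The state is not exclusive to astrocytes as far as single genes go: Vim is also made by endothelial cells and fibroblasts, Cd44 by several glial and immune cells, and Stat3 by nearly every cell. Astrocytes were well represented in the tissue, since all 17 homeostatic astrocyte markers, such as the glutamate transporters Slc1a2 and Slc1a3 and the water channel Aqp4, passed the filter on low counts, with a summed level between 9336 and 10746 counts per 1000000 (CPM).

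The promoters of the 4 genes on which the description turns are shown for orientation, each over 150 bases from 120 before the start of transcription, taken from the RefSeq annotation of GRCm38.p6 and written 5′ to 3′ on the strand of the gene. Capitals mark matches, on either strand, to a STAT site (TTCNNNGAA), an AP-1 site, a TATA box or a GC box, whose letters are given with their counts. The Gfap stretch lies at chr11:102897171-102897320 on the minus strand, that of Vim at chr2:13574191-13574340 on the plus strand, that of Serpina3n at chr12:104406588-104406737 on the plus strand and that of Lcn2 at chr2:32387710-32387859 on the minus strand.
Gfap: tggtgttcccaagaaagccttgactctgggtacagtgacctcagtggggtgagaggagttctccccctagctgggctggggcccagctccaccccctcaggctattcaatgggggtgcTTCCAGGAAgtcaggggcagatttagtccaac
Vim: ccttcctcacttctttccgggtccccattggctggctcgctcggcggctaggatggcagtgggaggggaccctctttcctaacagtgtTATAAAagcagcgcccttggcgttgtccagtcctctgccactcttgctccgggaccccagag
Serpina3n: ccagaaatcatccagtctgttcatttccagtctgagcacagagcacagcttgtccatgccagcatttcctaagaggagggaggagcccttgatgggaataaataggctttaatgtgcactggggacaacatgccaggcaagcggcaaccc
Lcn2: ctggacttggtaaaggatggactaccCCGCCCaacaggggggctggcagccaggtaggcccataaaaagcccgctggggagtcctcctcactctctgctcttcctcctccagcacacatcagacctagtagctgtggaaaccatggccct
Gfap, whose product is the filament protein that defines astrocytes in tissue sections, was the only one of the 9 genes with a promoter window that held a STAT match, and it began 2 bases before the start site. Over all 32851 promoter windows of the annotation, each from 250 bases before the start to 50 from it, 8.30% held such a match. Vim and Cp held a TATA match (TATAAA), which 13.6% of all windows did, and in Vim it began at position -32. GC boxes, searched as GGGCGG, lay in the windows of 5 of the genes (Lcn2, Cd44, Stat3, Aspg and Osmr) and in 35.7% of all windows. The AP-1 letters TGAGTCA were found in none of the 9 genes and in 5.20% of all windows. No window was given for Cd109. In Serpina3n none of these letter strings occurred, which says nothing about the factors that bind there, and a match is likewise no sign of binding.

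**Figure D1:**
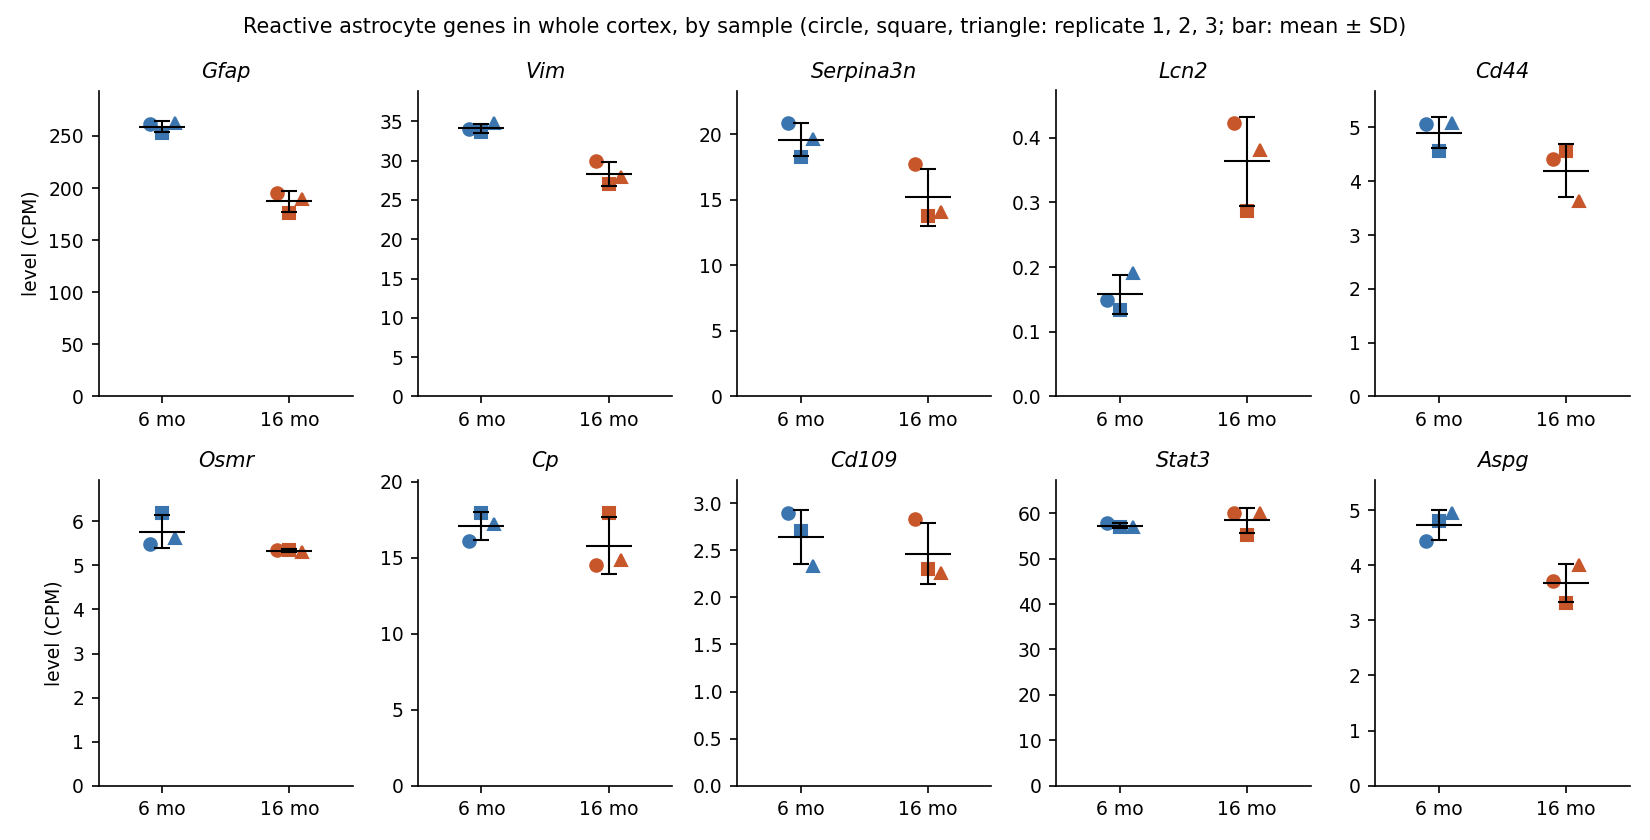
Level of each of the 10 reactive astrocyte genes in every sample, in counts per 1000000 (CPM) on axes that start at 0. Circles, squares and triangles are replicates 1, 2 and 3 of 6 months (blue) and 16 months (orange), and the black bars are the mean ± SD (n = 3). All 3 samples of 16 months lie below all 3 of 6 months in Gfap, Vim, Serpina3n, Cd44, Osmr and Aspg, and above them in Lcn2.

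The reactive genes were mostly lower, not higher, at 16 months. Of the 10, 9 passed the filter on low counts, and Lcn2 did not. Among these 9, only Gfap was called by edgeR's quasi-likelihood test at a Benjamini-Hochberg adjusted P under 0.05 over all genes, and it was lower, by 27.6%. Of all 17120 tested genes, 1.67% were called, 0.888% as lower and 0.783% as higher. The log2 fold change, given throughout as 16 over 6 months, was negative in 8 of the 9 genes and positive in Stat3, with a median of −0.23 beside 0.0014 over all tested genes. In 6 of the 9, every sample of 16 months lay below every sample of 6 months, which was so in 11.5% of all tested genes, and in Cp, Cd109 and Stat3 the ages overlapped. An unadjusted P under 0.05 was reached by 4 of the 9 and by 17.4% of all tested genes. Because the genes were chosen with results of this contrast known, nothing is read from these counts against their background.

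**Figure D2:**
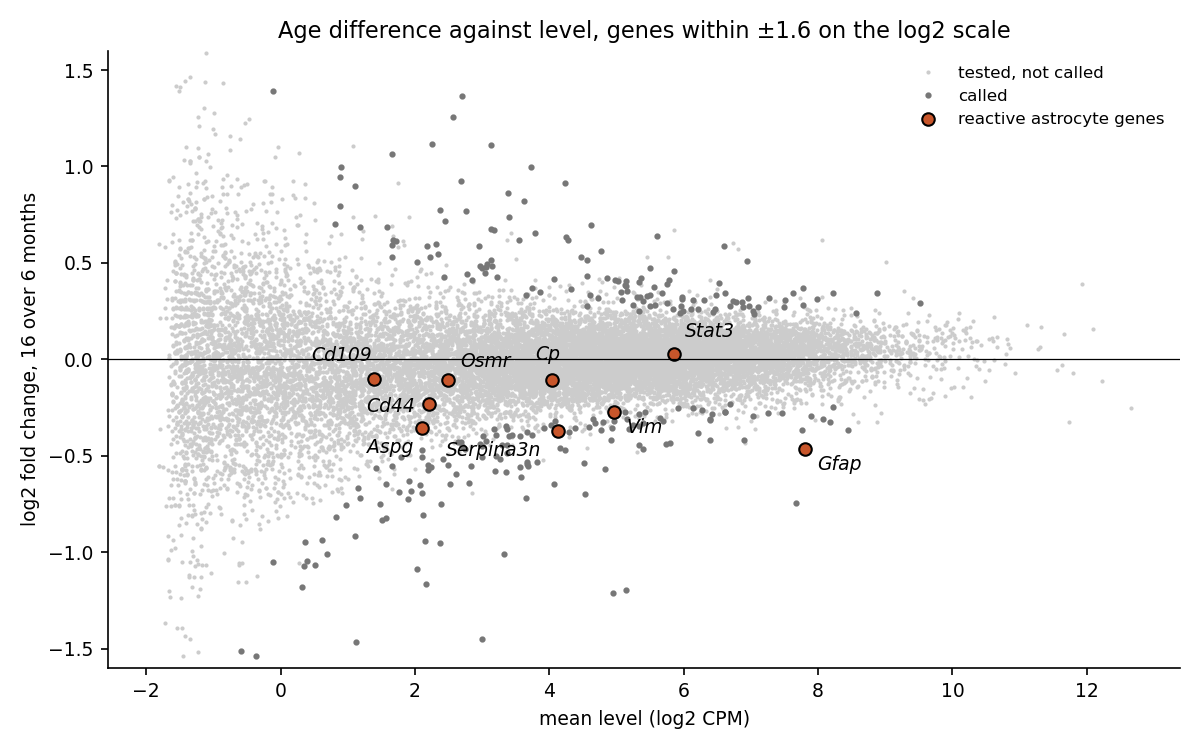
Log2 fold change of 16 over 6 months against the mean level in log2 CPM for the tested genes, without the 26 genes beyond ±1.6. Grey points are genes not called, dark points genes called at an adjusted P under 0.05, and orange points the 9 tested reactive astrocyte genes. Gfap, at −0.47, is the most abundant of the 9 and stands among the called genes, while Stat3 lies close to 0.

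Gfap (ENSMUSG00000020932), at chromosome 11 of GRCm38, bases 102887336 to 102900912 of the minus strand, was measured at 262, 253 and 262 CPM in replicates 1, 2 and 3 of 6 months and at 196, 176 and 189.9 CPM at 16 months. The gap between the ages, from 253 down to 196 CPM, was wider than the whole range within either age. Its counts were between 5529 and 12261 per sample, so that counting error is small beside the difference between the ages. Its fitted log2 fold change of −0.47 had a standard error of 0.055 and a 95% interval from −0.59 to −0.34 (Benjamini-Hochberg adjusted P = 0.00332, edgeR), and its P ranked 39 among all tested genes. With any 1 sample left out the log2 fold change stayed between −0.50 and −0.43, and Gfap was called in all 6 of these fits.

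Vim encodes vimentin, the filament protein that assembles with GFAP in reactive astrocytes. It lies on the plus strand of chromosome 2 from 13573927 to 13582826, and its levels were 34.0, 33.6 and 34.8 CPM at 6 months and 30.0, 27.0 and 27.9 CPM at 16 months. The 3 younger samples were tightly grouped and all lay above the 3 older ones. The log2 fold change of −0.27 (SE 0.059, 95% interval −0.40 to −0.14) did not pass the threshold (Benjamini-Hochberg adjusted P = 0.0559, edgeR). Without replicate 1 of 16 months the value was −0.32 (adjusted P = 0.00407) and without replicate 2 of 16 months −0.24 (adjusted P = 0.023, same edgeR test and adjustment), both past the threshold; these fits called 5.73% and 12.7% of all tested genes. In the other 4 fits with 1 sample left out Vim was not called, at −0.28 to −0.26 (Benjamini-Hochberg adjusted P between 0.216 and 0.285, edgeR). On the scale of reads per kilobase and per 1000000 (RPKM), the level of Gfap over that of Vim was 8.64, 8.45 and 8.48 at 6 months and 7.34, 7.35 and 7.65 at 16 months, so that the ratio within each sample was lower in the older mice as well, by more than its spread.

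Among their filament partners, none of 6 tested genes was called. Nes, which encodes nestin, a filament protein of progenitors, reactive astrocytes and vessels, was nearest to the threshold. Its levels were 14.5, 12.7 and 12.8 CPM at 6 months and 10.6, 10.8 and 10.01 CPM at 16 months, with a log2 fold change of −0.35 (SE 0.078, Benjamini-Hochberg adjusted P = 0.0588, edgeR), and all older samples lay below all younger ones. For the other 5, which are Synm, Des, Plec, Sync and Tuba1a, the value lay between −0.15 and 0.15.

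Serpina3n encodes a secreted inhibitor of serine proteases and lies on the plus strand of chromosome 12 from 104406729 to 104414329. Its levels were 20.8, 18.3 and 19.6 CPM at 6 months and 17.7, 13.8 and 14.1 CPM at 16 months. Replicate 1 of 16 months stood close to the younger samples, and the other older samples lay well below them. The log2 fold change was −0.37 (SE 0.099, 95% interval −0.59 to −0.15) and did not pass the threshold (Benjamini-Hochberg adjusted P = 0.0977, edgeR). Without replicate 1 of 16 months it was −0.50 (adjusted P = 0.000758), and without replicate 2 of 16 months −0.31 (adjusted P = 0.0499, same edgeR test and adjustment), again both past the threshold. In the other 4 such fits Serpina3n was not called, at −0.41 to −0.32 (Benjamini-Hochberg adjusted P between 0.229 and 0.356, edgeR). No other annotated transcript matched 100 bases of Serpina3n, or of any other of the 10 genes, at 97% identity. The other 10 genes listed for the Serpina3 cluster on chromosome 12 could not be tested, and 7 of them had at most 3 counts in every sample.

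Aspg, which encodes an asparaginase, lies in the same chromosome from 112106679 to 112127559. It was measured at 4.44, 4.80 and 4.96 CPM at 6 months and at 3.71, 3.32 and 4.01 CPM at 16 months, again without overlap between the ages. Its log2 fold change of −0.36 (SE 0.10, 95% interval −0.59 to −0.13) was nearly as large as that of Serpina3n but rested on fewer reads, between 104 and 208 counts per sample, and was not called (Benjamini-Hochberg adjusted P = 0.122, edgeR). With each library corrected for GC content and gene length, a fit that called 14.2% of all tested genes, Aspg (−0.39, adjusted P = 0.0212), Vim (−0.29, adjusted P = 0.00304) and Serpina3n (−0.35, adjusted P = 0.00694) were past the threshold of the same edgeR test.

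Cd44, the receptor for hyaluronan on the cell surface, had 5.06, 4.57 and 5.08 CPM at 6 months and 4.40, 4.56 and 3.63 CPM at 16 months. Replicate 2 of both ages had almost the same level, so that the ages only just failed to overlap. Its log2 fold change was −0.23 with an interval from −0.47 to 0.0087, which includes 0 (Benjamini-Hochberg adjusted P = 0.303, edgeR). Cd109, a membrane-anchored protein that binds TGF-β, ranged from 2.34 to 2.90 CPM at 6 months and from 2.25 to 2.84 CPM at 16 months, and its interval from −0.41 to 0.20 was the widest of the 9. With 72 to 136 counts per sample, a difference of the size seen in Gfap lay outside this interval, but one of the size seen in Serpina3n or Aspg did not. Cp encodes ceruloplasmin, the copper-binding ferroxidase that astrocytes carry on their endfeet. It ranged from 16.1 to 17.9 CPM at 6 months and from 14.5 to 18.0 CPM at 16 months, where replicate 2 was the highest sample of all. Of 11 other tested genes of iron handling, such as ferritin and transferrin, none was called, and their median log2 fold change was −0.00048. Heph, which encodes the ferroxidase hephaestin, was at 9.35 ± 0.447 CPM at 6 months and at 11.7 ± 0.892 CPM at 16 months (SD, n = 3 each). All older samples lay above all younger ones, and its log2 fold change of 0.32 did not pass the threshold (Benjamini-Hochberg adjusted P = 0.0812, edgeR).

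**Figure D3:**
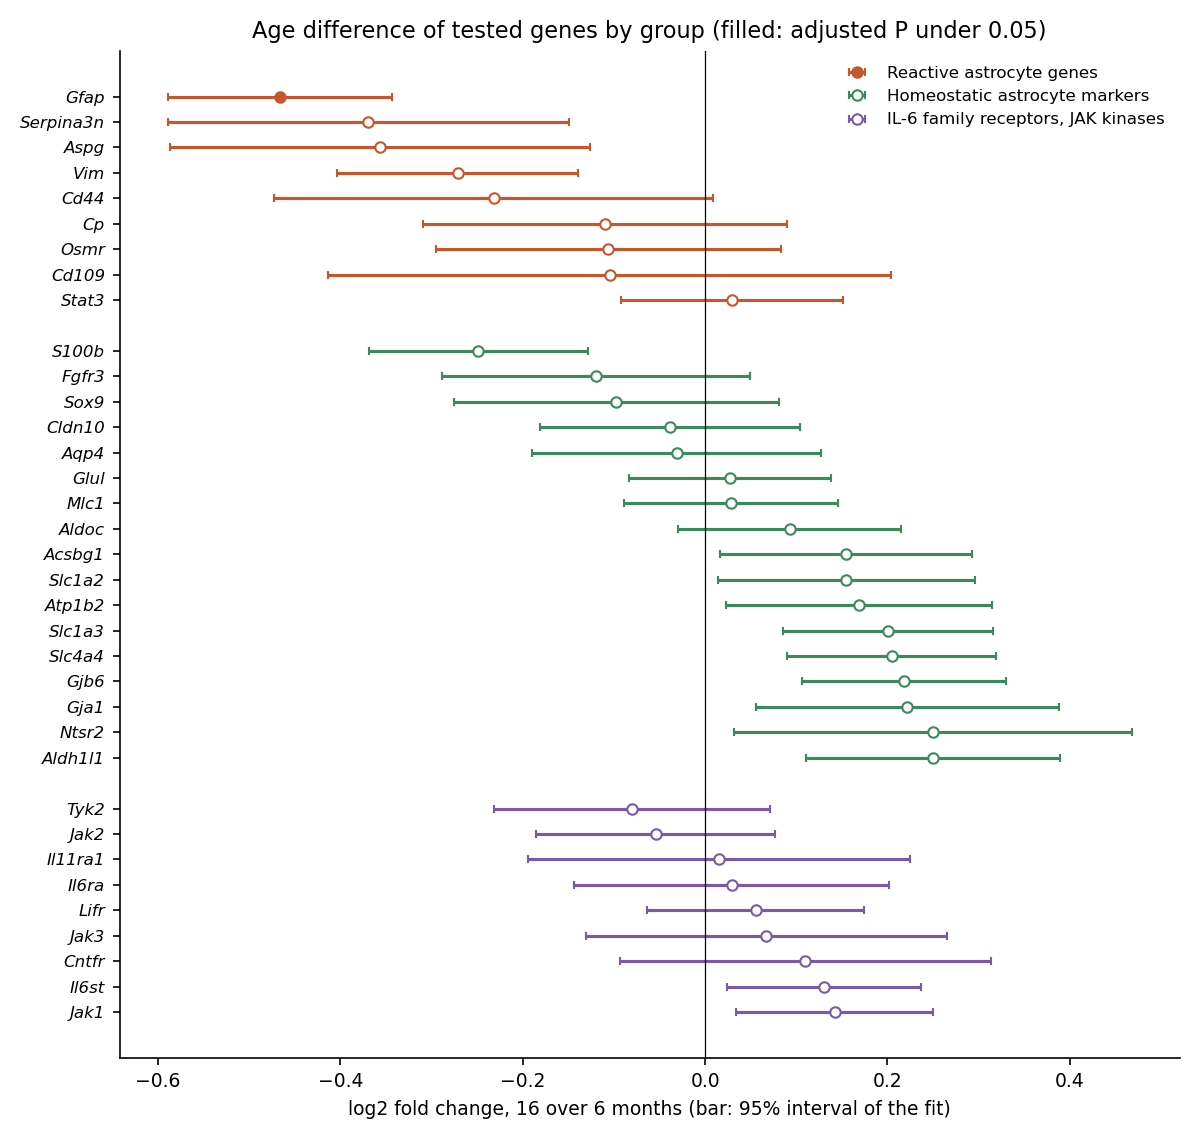
Log2 fold change of 16 over 6 months with its 95% interval from edgeR's quasi-likelihood fit, for the 9 tested reactive astrocyte genes (orange), 17 homeostatic astrocyte markers (green) and 9 receptors and JAK kinases of the interleukin-6 pathway (purple). Filled points passed an adjusted P under 0.05, which only Gfap did in this fit, at −0.47; 12 of the 17 homeostatic markers have positive values.

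Of the 10 genes, Stat3 and Osmr belong to the signalling upstream of this response, and both stood closer to 0 than Gfap. Stat3, the transcription factor of the pathway, was measured at 57.9, 56.9 and 56.97 CPM at 6 months and at 60.0, 55.2 and 60.2 CPM at 16 months. The ages overlapped, with replicate 2 of 16 months the lowest of all samples, and the interval of the log2 fold change, from −0.093 to 0.15, excludes a decrease as large as that of Gfap. Osmr encodes the receptor for oncostatin M. Its levels were 5.48, 6.20 and 5.63 CPM at 6 months and 5.34, 5.36 and 5.30 CPM at 16 months, and it was the only one of the 9 whose samples spread less at the older age. Its log2 fold change of −0.11 had an interval from −0.30 to 0.083.

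Among 5 other receptors of the interleukin-6 family, none was called, and all 5 values were positive, between 0.015 and 0.13. The highest was that of Il6st, which encodes gp130 (82.5, 81.8 and 81.6 CPM at 6 months, 88.3, 90.6 and 90.4 CPM at 16 months; log2 fold change 0.13, SE 0.048). Of the 4 JAK kinases none was called either: the log2 fold change of Jak1 was 0.14 and that of Jak2 −0.054. In Il6st and Jak1 all older samples lay above all younger ones. Under the GC and length offsets, which called 14.2% of all tested genes, 1 of the 5 receptors and 1 of the 4 kinases were called. These were Il6st (0.098) and Jak1 (0.12), both as higher. None of 8 inhibitors of the pathway was called, with −0.10 for the feedback inhibitor Socs3, which itself responds to STAT3. Of 13 other genes known as STAT3 targets, Junb, Myc and Fos among them, none was called, and their median was 0.037.

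Among the ligands of the family, Ctf1, Clcf1 and Lif were tested and not called, with log2 fold changes of −0.23, −0.012 and 0.034. Il6, Osm, Cntf and Il11 had too few counts to be tested, at most 13 in any sample.

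Lcn2, which encodes the iron-scavenging protein lipocalin-2, is one of the most strongly induced genes of reactive astrocytes after systemic inflammation, and it was barely detected here. Its counts were 7, 4 and 8 at 6 months and 14, 9 and 13 at 16 months, that is 0.149, 0.133 and 0.191 CPM against 0.422, 0.287 and 0.381 CPM. All older samples lay above all younger ones, opposite to Gfap. Summed over samples, 19 counts stood against 36, a ratio per total of 2.24 with an exact 95% interval from 1.25 to 4.14 that covers counting error only. Without the filter, edgeR's quasi-likelihood test gave a log2 fold change of 1.17 (SE 0.42, Benjamini-Hochberg adjusted P = 0.161), and without replicate 2 of 16 months, where the gene passed the filter, 1.31 with an adjusted P = 0.0486. In the latter fit, which called 12.7% of all tested genes, it passed the filter through its higher level at 16 months. Nothing is therefore read from its call there. Neutrophils also store lipocalin-2. The 5 neutrophil markers S100a8, S100a9, Ngp, Camp and Ltf had at most 10 counts in any sample and were not tested, whereas the 5 blood markers, which are hemoglobin genes and Alas2, were all higher in all 3 older samples, and the summed level of all 10 was between 27.8 and 31.2 CPM at 6 months and between 45.5 and 51.0 CPM at 16 months. Hbb-bs (log2 fold change 0.70) and Hbb-bt (0.60) were called among them, Hbb-bt no longer without any 1 sample of 6 months or replicate 3 of 16 months (0.54 to 0.65). The part of blood in the Lcn2 level was not tested.

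Compared per length of transcript, the levels spanned 3 orders of magnitude. At 6 months the order in mean RPKM was Gfap (61.4 ± 1.24), Serpina3n (9.48 ± 0.619), Vim (7.20 ± 0.120), Stat3 (6.01 ± 0.0571), Cp (1.78 ± 0.0968), Aspg (1.34 ± 0.0759), Cd44 (0.723 ± 0.0426), Osmr (0.476 ± 0.0314), Cd109 (0.383 ± 0.0415) and Lcn2 (0.0602 ± 0.0113; SD, n = 3 each), and the samples of no 2 neighbours overlapped. At 16 months Gfap was at 44.4 ± 2.34 and Serpina3n at 7.36 ± 1.05 RPKM, and Stat3 (6.13 ± 0.298) and Vim (5.96 ± 0.320; SD, n = 3 each) had changed places, with overlapping samples. Every other neighbouring pair kept its order without overlap. Levels per length depend on the length assumed: with the longest transcript in place of all exons, Vim and Serpina3n, and Cd44 and Osmr, stood in the opposite order at 6 months. Gfap alone made up between 63.5% and 64.1% of the summed CPM of the 10 genes at 6 months and between 57.6% and 58.9% at 16 months.

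Against the summed CPM of the homeostatic astrocyte markers, the reactive genes stood lower still. None of the 17 markers was called, 12 of the 17 values were positive, and their median log2 fold change was 0.15. Under the GC and length offsets, which called 14.2% of all tested genes, 10 of the 17 were called, 8 as higher, among them Aldh1l1 (0.21) and Slc1a3 (0.19), and 2 as lower, Fgfr3 (−0.16) and S100b (−0.19). Aldh1l1, a folate enzyme used to mark all astrocytes, was at 74.1, 71.6 and 72.8 CPM at 6 months and at 93.9, 80.9 and 85.2 CPM at 16 months, with a log2 fold change of 0.25 (SE 0.063). It was 0.20 for Slc1a3, 0.15 for Slc1a2 and −0.031 for Aqp4, and the lowest value was −0.25, in S100b. The summed CPM of the markers was between 9336 and 9749 at 6 months and between 10045 and 10746 at 16 months (exact two-sided permutation p = 0.1, below which 3 samples against 3 cannot go). Slc1a2 weighs most in this sum, with a mean of 4129 of 9534 CPM at 6 months and of 4597 of 10342 CPM at 16 months. Per 1000 CPM of these markers, Gfap was at 26.8, 26.6 and 28.1 CPM at 6 months and at 19.5, 17.2 and 17.7 CPM at 16 months, a ratio of means of 0.667. The same ratio was 0.764 for Vim, 0.717 for Serpina3n, 0.716 for Aspg, 0.792 for Cd44, 0.852 for Osmr, 0.854 for Cp, 0.862 for Cd109, 0.941 for Stat3 and 2.12 for Lcn2, and the genes whose ages did not overlap were those that did not overlap in CPM.

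Other genes that reactive astrocytes are known to induce gave a mixed picture. Of 5 further genes shared by reactive states none was called, with log2 fold changes from −0.57 (Cxcl10) to 0.41 (Hspb1). Of 11 tested genes known from astrocytes after systemic inflammation, 9 had negative values, and 1 was called in each direction. Gbp2, an interferon-induced GTPase, fell from 4.22, 4.23 and 4.82 to 2.84, 3.13 and 2.64 CPM (log2 fold change −0.63, SE 0.11, Benjamini-Hochberg adjusted P = 0.0231, edgeR). Without replicate 1, 2 or 3 of 6 months or replicate 3 of 16 months its value was −0.67, −0.66, −0.56 and −0.57 and was no longer called. Fkbp5, which glucocorticoids induce, rose from 38.2, 38.0 and 37.6 to 52.7, 54.3 and 51.1 CPM (log2 fold change 0.47, SE 0.052, adjusted P = 0.0024, same edgeR test and adjustment), and this call held in every fit with 1 sample left out. Of 9 tested genes known from astrocytes after ischemic injury, 8 had negative values and 1 was called: Tm4sf1, a membrane protein of vessels and astrocytes, fell from 9.58, 10.2 and 10.4 to 7.63, 8.23 and 7.61 CPM (log2 fold change −0.36, SE 0.075, adjusted P = 0.0452, same edgeR test and adjustment). Without the same 4 samples as for Gbp2, Tm4sf1 was not called either, at −0.40, −0.35, −0.33 and −0.34.

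**Figure D4:**
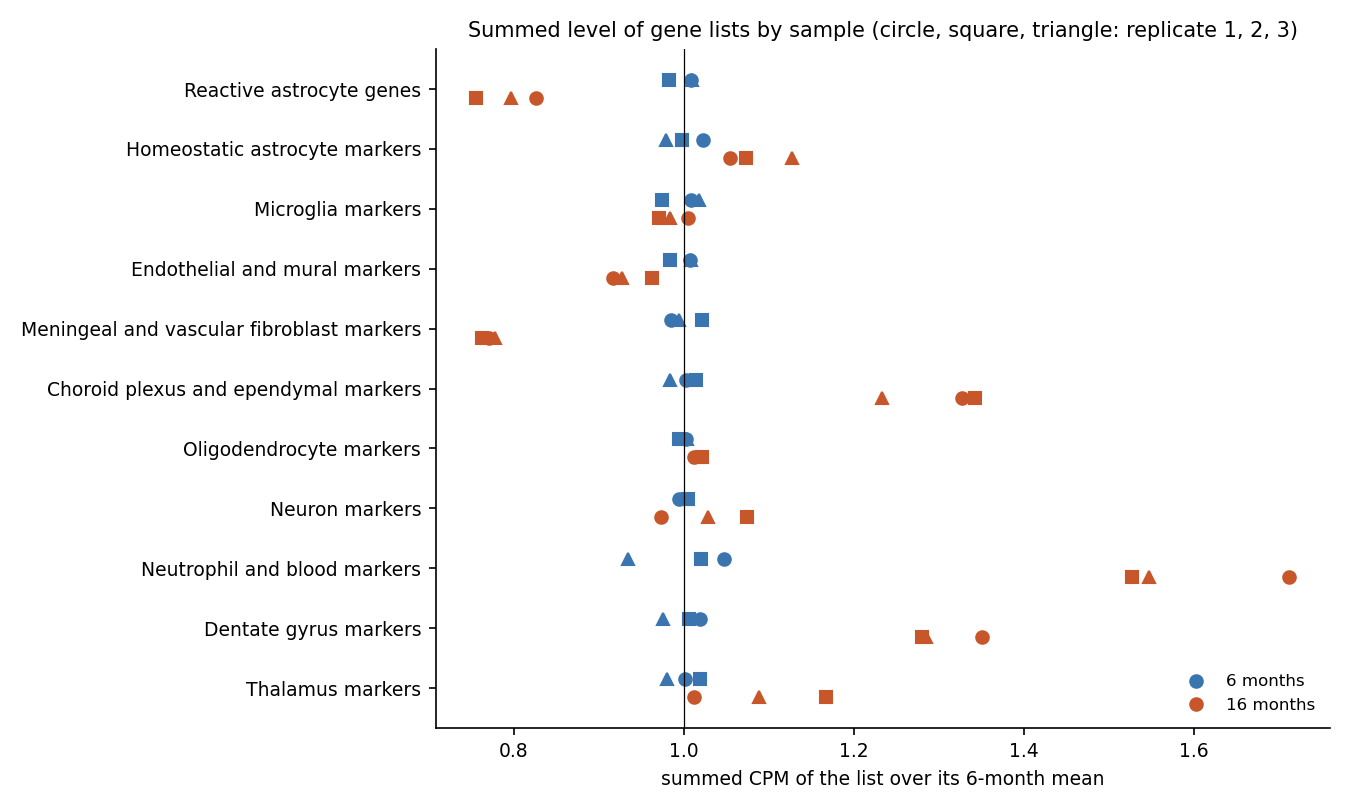
Summed CPM of each gene list in every sample, divided by the mean of the list at 6 months (blue, 6 months; orange, 16 months; circle, square and triangle, replicates 1, 2 and 3). The horizontal axis does not start at 0. The reactive astrocyte genes and the meningeal and vascular fibroblast markers lie to the left of their 6-month samples, at mean ratios of 0.793 and 0.770, and the homeostatic astrocyte markers to the right, at 1.08.

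Markers of some other cell types moved with the reactive genes. The 10 markers of meningeal and vascular fibroblasts summed to between 123 and 128 CPM at 6 months and to between 95.6 and 97.5 CPM at 16 months (exact two-sided permutation p = 0.1), 9 of the 10 had negative log2 fold changes with a median of −0.35, and Igf2 (−0.46) and Ogn (−0.58) were called. None of these markers was at 0. The 11 endothelial and mural markers summed to between 261 and 267 CPM and to between 243 and 255 CPM, with 1 gene called, the VEGF receptor Kdr (−0.39). Vim, Cd44, Osmr and Cd109 are also expressed in such cells, and the part of vessels and meninges in their levels was not tested. The 12 microglia markers summed to between 547 and 571 CPM and to between 545 and 564 CPM, so that the ages overlapped. Of the 12 log2 fold changes 8 were negative and 4 positive, and Aif1 (−0.43) and Tyrobp (−0.36) were called as lower. Csf1r (0.25) was not called in the reported fit, and all its older samples lay above all its younger ones. Some markers of neighbouring tissue were called as higher at 16 months: 4 of 7 for dentate gyrus (Dsp, Lct, C1ql2 and Pdzd2) and 4 of 7 for thalamus (Prkcd, Shox2, Tcf7l2 and Calb2). The dentate gyrus markers summed to 145 to 152 CPM at 6 months and to 191 to 201 CPM at 16 months (exact two-sided permutation p = 0.1). The thalamus sums, from 213 to 221 and from 220 to 254 CPM, overlapped between the ages (p = 0.2, same permutation test). Of 8 choroid plexus and ependymal markers Ttr was called as higher and Ccdc153 as lower, and 4 of the 8 log2 fold changes were negative. The sum of these 8 was between 26.5 and 27.3 CPM at 6 months and between 33.2 and 36.1 CPM at 16 months. The rise of this sum came from Ttr, whose mean went from 8.95 to 17.8 CPM. Of 8 oligodendrocyte markers Cldn11 and Mal were called as higher, with sums from 7189 to 7260 and from 7316 to 7387 CPM. Of 8 neuron markers none was called, with sums from 8902 to 9004 and from 8714 to 9621 CPM. Leaving out any 1 of the 3 samples of 6 months, or replicate 3 of 16 months, ended the calls of Ogn (then −0.60 to −0.56), Kdr (−0.41 to −0.39), Aif1 (−0.46 to −0.37), Tyrobp (−0.37 to −0.33), Ccdc153 (−0.81 to −0.68), C1ql2 (0.83 to 0.91), Pdzd2 (0.38 to 0.41), Tcf7l2 (0.42 to 0.45), Calb2 (0.34 to 0.38), Cldn11 (0.26 to 0.30) and Mal (0.32 to 0.36), all with the same sign. How far the amount of neighbouring tissue in the dissection moved the astrocyte genes was not tested.

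Among themselves, the older samples differed more than the younger ones. In 8 of the 9 tested genes the SD of log2 CPM was larger at 16 months, as it was in 75.5% of all tested genes. For Gfap it was 0.029 at 6 months and 0.077 at 16 months, for Serpina3n 0.094 and 0.20, and for Stat3 0.014 and 0.071. Replicate 1 of 16 months was the highest older sample in 5 of the 10 genes and replicate 2 the lowest in 6. In these samples the deviation of each gene from the mean of its age followed its GC content in opposite directions, with r = 0.588 in replicate 1 and −0.582 in replicate 2 across genes, which are not independent replicates, while r lay between −0.130 and 0.160 in the other 4 samples. The GC content of the 10 genes was between 41.7% and 58.1%, with a median of 49.7% over all tested genes. Under the GC and length offsets the log2 fold change of Gfap was −0.50, and that of Stat3 moved from 0.029 to just under 0.

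**Figure D5:**
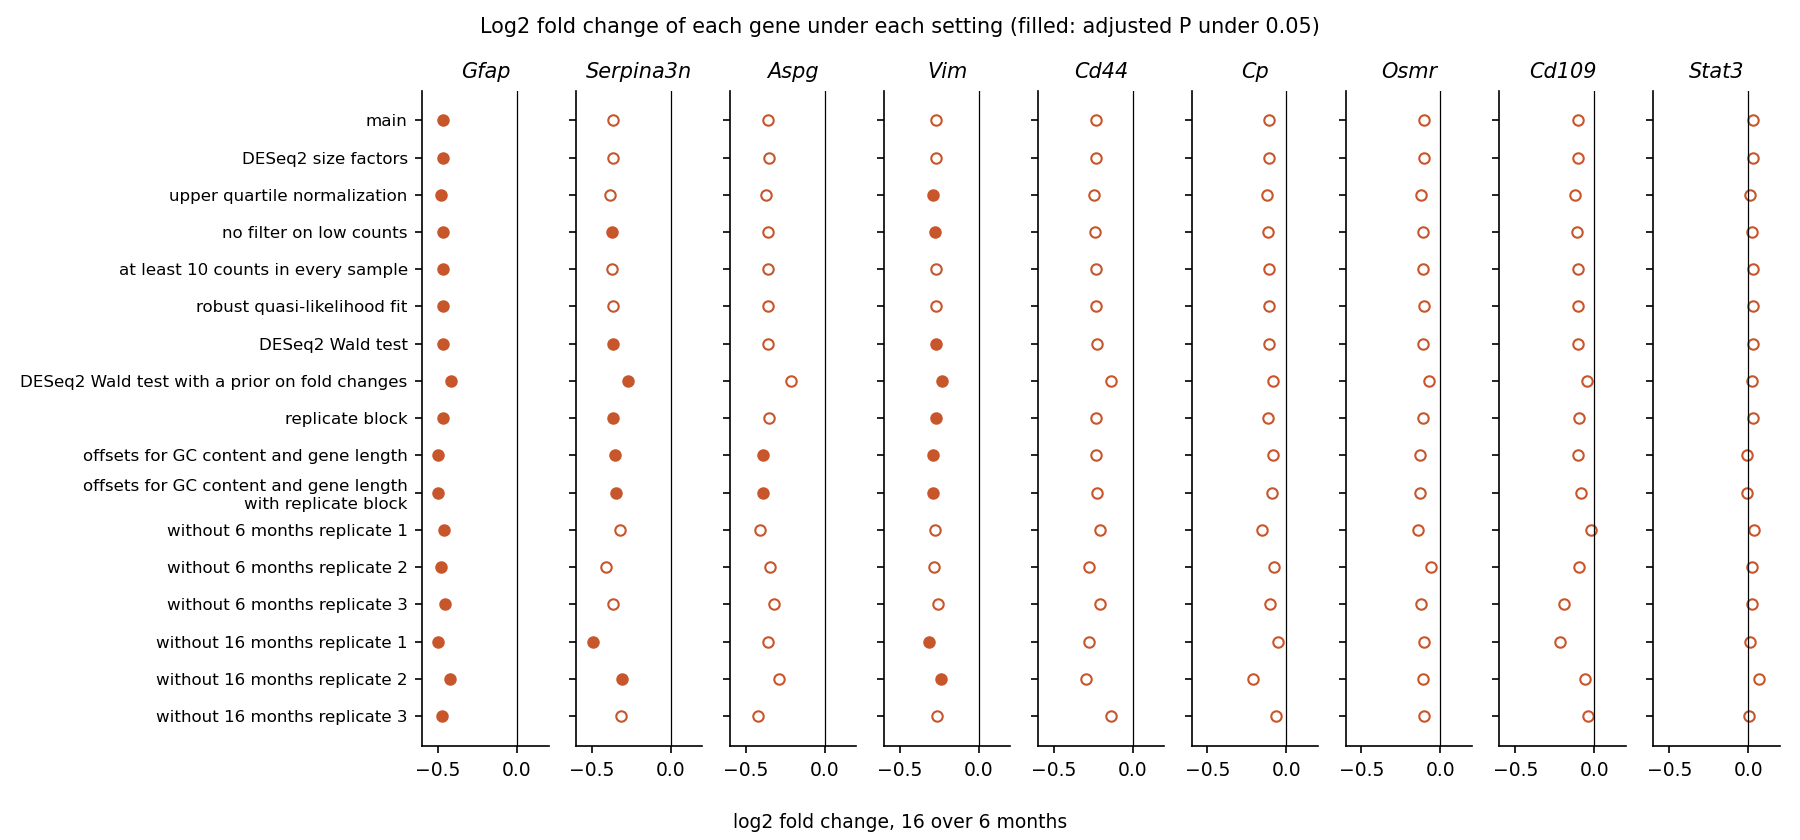
Log2 fold change of 16 over 6 months of the 9 tested reactive astrocyte genes under each way of processing the counts, from the reported fit (main) to the fits without 1 sample. Filled points passed an adjusted P under 0.05. Gfap is filled in every row, Vim in 9 and Serpina3n in 8 of the 16 alternatives, Aspg in the 2 fits with GC and length offsets, and the other 5 genes in none.

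The number of these genes called depended on how the counts were processed. Over all tested genes, 1.70% were called with upper quartile normalization, where Vim joined Gfap, 2.35% without the filter on low counts and 2.67% with DESeq2's Wald test, where Vim and Serpina3n both did.

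The genes whose levels followed those of Gfap most closely over the 6 samples, by Pearson's r of log2 CPM, were Plekhb1 (0.997), Gli1 (0.995), Trip10 (0.995), Rreb1 (0.995) and C4b (0.994). Of these, Gli1, a transcription factor of the hedgehog pathway that is active in cortical astrocytes, was called at a log2 fold change of −1.01, Rreb1 at −0.28 and the complement gene C4b at −1.20, and Plekhb1 and Trip10 were not called. The calls of Gli1 and Rreb1 were lost without any 1 sample of 6 months or replicate 3 of 16 months, at −1.06 to −0.96 and −0.29 to −0.26. Those nearest to Serpina3n were Fuom (0.994), Rack1 (0.992), Gpx4 (0.989), Tap1 (0.988) and Tmem205 (0.988), none of which was called. These correlations rest on 6 samples that share the difference between the ages, the deviations of single libraries and the choice of the highest values among all tested genes, and they are given as a description.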

How the data were processed

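RNA of whole cortical hemispheres was sequenced from 6 samples, 3 per age. The authors trimmed paired-end reads, aligned them to mm10 with STAR and counted them per Ensembl gene with HTSeq; the submitters' processing notes instead name CASAVA 1.8.2, STAR 2.3.0e and featureCounts 1.5.0-p1. The annotation release and strand setting were not given in the sources used here. The deposited values are raw counts, 1 whole number per gene, without normalization; summary entries that name no gene were left out, and 70.8% to 76.5% of unique alignments lay on genes. Of 38355 genes, 36602 were matched by identifier to GENCODE M21 (GRCm38), which gave names, positions and lengths, and 1753 were not.

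The ages were compared in edgeR 4.0.16 (R 4.3.3) after TMM scaling and filterByExpr (17120 genes kept); its quasi-likelihood test had no covariates, and P-values were adjusted by Benjamini-Hochberg over all tested genes, with a threshold of 0.05. CPM use TMM-scaled totals, log2 CPM a prior count of 2, and RPKM the length of all exons of a gene. The fitted biological coefficient of variation was 6.40%, and 3 counts correspond to between 0.0645 and 0.101 CPM. Standard errors are those implied by the quasi-likelihood F. Marker sums were compared by exact permutation tests. Copies were searched with blastn 2.17.0 (97% identity over 100 bases), and overlapping exons shared at most 1.13% of a gene (Cp with Hps3, Stat3 with Stat5a). The study's figure legend gives 3 brains per age, while the labels do not say whether each sample is a single mouse. P-values measure the spread between these samples. The script was tested on simulated data.

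The 10 genes and the 21 other lists were chosen with earlier results of these data known. Named genes are the 10, every gene of the lists called in the reported fit and some of those called only with a replicate block. Others called only with that block, such as Slc6a13, Slc22a6 and Cnp, are not described. Also named are Il6st, Jak1, Jak2, Socs3, Aqp4, Aldh1l1, Slc1a2 and Slc1a3, and the 5 genes most correlated with Gfap and with Serpina3n. The other ligands, the filament partners, Fgfr3, Cxcl10, Hspb1, Junb, Myc, Fos and the neutrophil markers were named after their values were seen. A gene that this rule names is not reported here. Alternatives were DESeq2 1.42.0 (size factors, Wald test with and without a prior on fold changes), upper quartile scaling, other filters, a robust fit, the replicate block, offsets for GC content and gene length in 20 bins (98.7% of tested genes have a value), and each sample left out in turn.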

Additional observations from a re-analysis of the deposited data

How the results depend on the processing

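The sign of the log2 fold change of the 9 tested reactive astrocyte genes was that of the reported fit in 142 of 144 combinations of gene and alternative; both exceptions were Stat3 under the offsets for GC content and gene length. In 125 of the 144 the side of the threshold was the same as well, and in the other 19 a gene not called in the reported fit was called. Gfap was called under all 16 alternatives, Vim under 9, Serpina3n under 8 and Aspg under 2. Of the 10 genes, 1 was called in the reported fit (1.67% of all tested genes) and 2 with upper quartile normalization (1.70%). Without the filter on low counts 3 were called (2.35%). DESeq2's Wald test called 3 with or without its prior (2.67% of all tested genes without it), and the GC and length offsets 4 (14.2%). Between 1 and 4 were called without 1 sample. The highest of these counts came without replicate 2 of 16 months, a fit that called 12.7% of all tested genes. This count holds Lcn2 as higher beside Gfap, Vim and Serpina3n as lower. Lcn2 entered that fit through its higher level at 16 months, so that nothing is read from its call. Over all genes the reported 286 calls became 648 without the filter, 470 with DESeq2 and 2432 with the offsets, and between 48 and 2211 without 1 sample. Of the genes in the other lists, 23 were called in the reported fit, 36 without the filter, 69 with the offsets, and between 9 and 52 without 1 sample. The order of the levels at 6 months kept 6 of 10 ranks with the length of the longest transcript and all 10 without TMM scaling. The causes were not tested. Depth limits Lcn2 most, and next Cd109, Aspg and Cd44.

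The ages share replicate numbers, but same-numbered samples are different mice. Across genes, the deviations of such pairs from their age means correlated with r = 0.180, 0.0958 and 0.0351 for numbers 1, 2 and 3, and replicate 3 of 16 months correlated best with replicate 2 of 6 months (0.0379), so that the numbers were not taken to pair the samples. Fitting the replicate number as a block gave 783 called genes (4.57% of those tested), 3 of the 10 reactive genes (Gfap, Vim at a Benjamini-Hochberg adjusted P = 0.0245 and Serpina3n at 0.0126, edgeR) and 38 genes of the other lists, among them Nes, Heph and 5 of the 17 homeostatic astrocyte markers (Aldh1l1, Slc1a3, Gjb6 and Slc4a4 as higher, S100b as lower). With the block and the GC and length offsets together these counts were 3287 of the 17120 tested genes, 4 and 75.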
